A study of Mus musculus with 6 samples.

Results

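*Kif12*, *Fam20c*, *Sfrp5*, *Sdsl* and *Klhl23* are 5 of the 56884 genes counted in 6 RNA sequencing libraries of mouse small intestinal organoid cells. They were chosen by their measured levels between the labels: each had a lower level in all 3 libraries labelled 4-OHT than in the EtOH library or libraries of the same day, at day 6 and at day 4. By the size of the day 6 fall they stand at ranks 2 to 6 of the 16 protein-coding genes that were lower in all 3, had a mean of at least 5 CPM (counts scaled to a common library size) over the 6 libraries and were called lower by edgeR at day 6. *Nrp1* stands at rank 1 and is not among the 5. The values that compare the 2 labels are therefore a description of how the genes were chosen, and no test of that contrast is given for them. All 5 genes passed the filter on low counts, as did 14066 genes at day 6.

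Organoids are epithelial cultures grown from intestinal tissue. Every organoid, the EtOH controls included, carried Villin-CreERT2, Lgr5-EGFP-IRES-CreERT2 and Ythdf2fl/fl, so both labels share the floxed *Ythdf2* alleles and both Cre transgenes. The villin promoter drives Cre across the intestinal epithelium, and the Lgr5 allele places EGFP and a further CreERT2 in Lgr5-expressing stem cells. Cre becomes active when 4-hydroxytamoxifen (4-OHT, used at 0.5 µM) binds it, and ethanol (EtOH) is the vehicle. Lgr5-GFP+ cells were sorted 6 days after addition for 2 EtOH libraries and 2 libraries labelled 4-OHT, and 4 days after addition for 1 library of each label. The labels do not say whether the libraries of a group came from separate cultures or mice, so a p-value measures the spread between these libraries, which may be technical.

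Gene counts per library ran from 14345379 to 21461835. *Ythdf2*, the floxed gene, went against the label: it was at 82.8 and 76.0 CPM in the day 6 EtOH libraries and at 207.6 and 204.4 CPM in the day 6 libraries labelled 4-OHT, and at 76.0 (EtOH) and 167.4 CPM (4-OHT) at day 4. Gene totals do not show which part of the gene was counted, and every direction below is that of libraries as labelled. *Lgr5*, the gene behind the sort, was at 250 to 368 CPM with EtOH and 209 to 274 CPM with 4-OHT. Those ranges pool the days, and within each day it was lower in all 3 libraries labelled 4-OHT. Its log2 fold change was -0.45 at day 6 and -0.44 over both days, each at an unadjusted edgeR p under 0.05. After adjustment edgeR called neither, whereas DESeq2 called the fall over both days. Summed stem cell markers (11 genes, none at 0 throughout) were at 5398 to 6487 CPM with EtOH and 4162 to 4798 CPM with 4-OHT. Without *Olfm4* the other 10 were at 3142 and 3178 CPM with 4-OHT against 3183 and 3808 CPM with EtOH at day 6. At day 4 these 10 were at 3934 (4-OHT) and 3920 CPM (EtOH), so over both days the labels overlap. Of the 11, 5 were lower and 2 higher in all 3 libraries labelled 4-OHT, as were 1983 and 2279 of 14066 tested genes. At day 6, 7 of the 11 had a log2 fold change below 0 and 4 above 0. Over both days edgeR called 1 of them higher and 1 lower, against 472 and 88 of 14060 tested genes. Summed enterocyte markers (10 genes) were higher with 4-OHT within each day, at 4588 and 3664 CPM against 1781 and 1748 CPM at day 6 and 1750 against 1296 CPM at day 4. Summed tuft markers (6 genes) were lower within each day, at 14.2 and 13.5 CPM against 36.3 and 24.3 CPM at day 6 and 13.0 against 13.9 CPM at day 4. Summed goblet markers (7 genes) were lower with 4-OHT at day 6, at 2871 and 2587 against 3357 and 3465 CPM. At day 4 their sum was higher, at 2437 against 2044 CPM. Singly, 3 of the 7 had a day 6 log2 fold change below 0 and 4 above 0. EdgeR called 2 of them higher and 0 lower at day 6, where 2.15% of all tested genes were called. Summed Paneth and enteroendocrine markers (7 genes each) overlapped between the labels at day 6 and were higher with 4-OHT at day 4. Those of mesenchyme, immune cells and endothelium were at no more than 13.0 CPM in any library. These marker levels moved with the label in some lists, and their part in the levels of the 5 genes was not tested. In bulk libraries fewer cells of a type and less RNA per cell cannot be told apart.

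The intestinal epithelium is renewed from Lgr5-positive stem cells at the base of the crypt, where Wnt signalling keeps them dividing, and their descendants mature into absorptive and secretory cells. Secreted Frizzled-related proteins bind Wnt proteins outside the cell and thereby modulate that signal. The 5 genes belong to different kinds of machinery: *Sfrp5* encodes such a secreted Wnt-binding protein, *Fam20c* a kinase of the secretory pathway, *Kif12* a kinesin motor, *Sdsl* a serine dehydratase-like enzyme and *Klhl23* a kelch-like protein, a class that includes substrate adaptors of Cul3 ubiquitin ligases. They lie on chromosomes 4, 5, 19, 5 and 2 in the order *Kif12*, *Fam20c*, *Sfrp5*, *Sdsl* and *Klhl23*.

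The stretches of DNA just upstream of the canonical transcripts of the genes differ in CpG content. The pair with the fewest and the most CpG is shown here. Each is the 250 bases before the start of the GENCODE M39 canonical transcript, read from GRCm39 on the gene's own strand, 5′ to 3′, with every CG in capitals. That for *Kif12* is chr4:63090377-63090626, minus strand, and that for *Sfrp5* is chr19:42190692-42190941, minus strand.

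Kif12: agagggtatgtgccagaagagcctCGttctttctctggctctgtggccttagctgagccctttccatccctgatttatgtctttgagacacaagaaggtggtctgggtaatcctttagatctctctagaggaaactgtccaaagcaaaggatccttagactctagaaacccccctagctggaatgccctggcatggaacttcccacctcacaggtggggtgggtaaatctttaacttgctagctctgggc

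Sfrp5: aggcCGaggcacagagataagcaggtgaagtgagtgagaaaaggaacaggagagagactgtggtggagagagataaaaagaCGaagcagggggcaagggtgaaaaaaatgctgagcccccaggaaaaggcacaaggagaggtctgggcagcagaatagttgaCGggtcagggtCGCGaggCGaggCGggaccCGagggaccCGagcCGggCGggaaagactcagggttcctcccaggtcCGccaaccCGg

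The *Kif12* window holds 1 CG, and 4.08% of the windows of 12308 tested protein-coding genes hold as few. The *Sfrp5* window holds 13, near the median of 12 over all windows. The other windows hold 4 (*Fam20c*), 3 (*Sdsl*) and 6 (*Klhl23*). Those of *Sdsl* (chr5:120605420-120605669) and *Klhl23* (chr2:69652464-69652713) precede the canonical transcript but lie within the annotated limits of the gene. Searched on both strands, none of the 5 windows contains CTTTGAA or CTTTGAT (TCF/LEF, in 6.04% of all windows), CAAAGTCCA (HNF4, 0.374%), GTTAAT (an HNF1 half-site, 4.71%), CCAAT (36.3%) or TATAAA (7.56%). The absence of these letters says nothing of whether a factor binds.

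*Sfrp5* (ENSMUSG00000018822, chr19:42186410-42190691, minus strand) is the gene of the 5 that acts directly on Wnt. At day 6 its counts were 292 and 179 with EtOH and 76 and 77 with 4-OHT, and at day 4 190 (EtOH) and 53 (4-OHT). In CPM these were 15.5, 10.4, 3.54, 4.12, 9.74 and 3.60 in the same order. All 3 EtOH values lay above all 3 values labelled 4-OHT, and the EtOH replicates differed from each other 1.49-fold. The day 6 mean was 12.9 ± 3.60 CPM with EtOH and 3.83 ± 0.416 CPM with 4-OHT (SD, n = 2 each). The fitted log2 fold change was -1.76 (SE 0.31). At day 4, with 1 library per label and no replicate check, the 4-OHT level was 36.9% of the EtOH level (exact 95% interval 26.7 to 50.3%, counting error only). Being the gene with the fewest reads of the 5, it had the widest such interval.

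*Fam20c* (ENSMUSG00000025854, chr5:138740173-138795832, plus strand) encodes the Golgi kinase that phosphorylates many secreted proteins on serine, and its loss in people causes Raine syndrome, a bone disorder. Its levels at day 6 were 24.0 and 26.0 CPM with EtOH and 6.65 and 6.80 CPM with 4-OHT, and at day 4 23.1 and 8.69 CPM. Replicates lay closest together for this gene, 1.08-fold apart with EtOH and 1.02-fold with 4-OHT, while the lower EtOH value was 3.53 times the higher 4-OHT value. The day 6 means were 25.0 ± 1.40 and 6.73 ± 0.106 CPM (SD, n = 2 each), which the fit put at -1.90 on the log2 scale (SE 0.23). At day 4 the 4-OHT level was 37.7% of EtOH (30.7 to 45.9%).

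*Kif12* (ENSMUSG00000028357, chr4:63083867-63090376, minus strand) encodes a motor of the kinesin family, proteins that mostly carry cargo along microtubules or act on the spindle, and its mutation in people causes a cholestatic liver disease. Day 6 levels were 55.3 and 28.3 CPM with EtOH and 11.7 and 7.39 CPM with 4-OHT, and at day 4 at 32.9 (EtOH) and 12.8 CPM (4-OHT). The EtOH replicates differed 1.96-fold, the widest replicate spread of the 5 genes, and the 4-OHT replicates 1.58-fold, yet the labels did not overlap. With day 6 means of 41.8 ± 19.1 and 9.53 ± 3.03 CPM (SD, n = 2 each), its log2 fold change of -2.13 (SE 0.34) was the largest of the 5 in size. The day 4 level with 4-OHT was 39.0% of that with EtOH (33.0 to 45.9%), which is the smallest day 4 fall of the 5.

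*Sdsl* (ENSMUSG00000029596, chr5:120596251-120611060, minus strand) encodes a homologue of serine dehydratase, the enzyme that deaminates serine and threonine. It had 79.4 and 66.3 CPM at day 6 with EtOH, 26.0 and 27.9 CPM with 4-OHT, and 78.3 and 27.2 CPM at day 4. Its 3 EtOH values and its 3 values labelled 4-OHT each formed a narrow band across both days. The day 6 means were 72.8 ± 9.32 and 26.9 ± 1.38 CPM (SD, n = 2 each), or -1.44 as a fitted log2 fold change (SE 0.19). The day 4 share of 34.7% (31.0 to 38.8%) was the lowest of the 5.

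*Klhl23* (ENSMUSG00000042155, chr2:69652265-69667645, plus strand) had 50.4 and 89.1 CPM at day 6 with EtOH, 22.0 and 32.7 CPM with 4-OHT, and at day 4 95.4 (EtOH) and 35.6 CPM (4-OHT). It has the narrowest gap between the labels: within day 6 the lower EtOH value was 1.54 times the higher 4-OHT value, less than the 1.77-fold between its EtOH replicates. The day 6 means were 69.7 ± 27.4 and 27.3 ± 7.57 CPM (SD, n = 2 each), or -1.36 as a fitted log2 fold change (SE 0.29). Without EtOH replicate 2 of day 6 that value was -0.89. At day 4 the 4-OHT level was 37.3% of EtOH (33.8 to 41.1%).

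**Figure D1:**
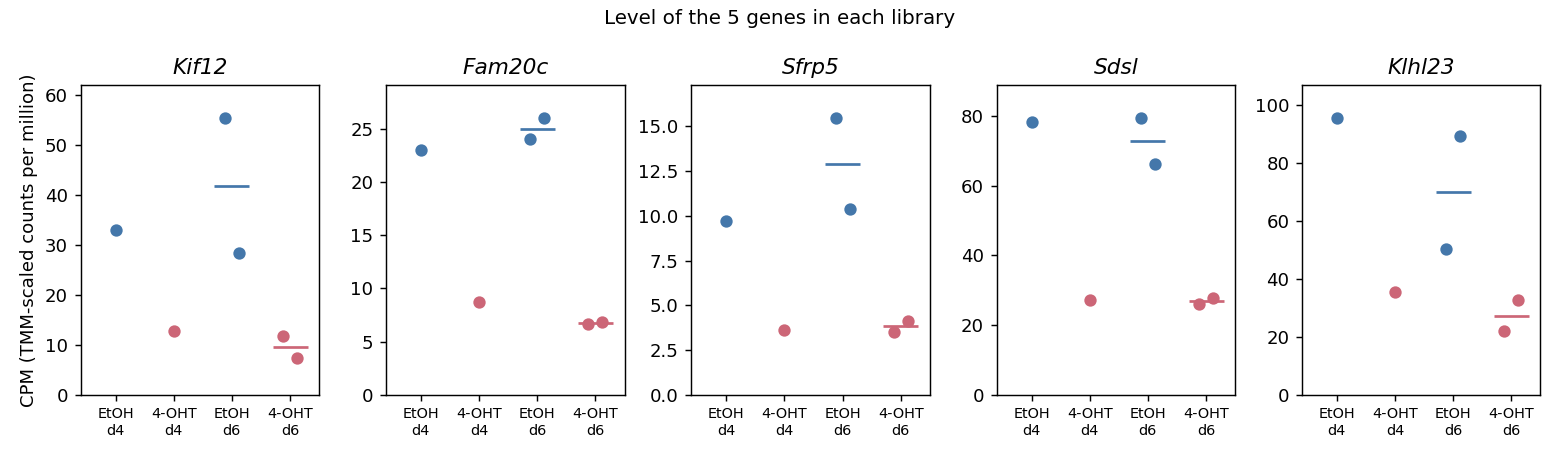
Level of each of the 5 genes in each library (TMM-scaled CPM, 1 panel per gene with its own axis), by label and day. Points are single libraries and horizontal bars are means of the 2 day 6 libraries. In every panel both EtOH groups lie above both groups labelled 4-OHT, with the widest EtOH scatter for *Kif12* and *Klhl23*.

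Across both days, the lowest EtOH value exceeded the highest 4-OHT value 2.66-fold for *Fam20c*, 2.37-fold for *Sdsl*, 2.36-fold for *Sfrp5*, 2.21-fold for *Kif12* and 1.42-fold for *Klhl23*. The order of labels was the same for all 5 genes when libraries were scaled to total gene counts or by median-of-ratios factors. Genes lower in all 3 libraries labelled 4-OHT in this sense were 14.1% of the 14066 tested at day 6, and genes called lower at day 6 by the edgeR quasi-likelihood test were 0.171%. Because the rule used this contrast, nothing is read from those shares. With both days in 1 fit, where 0.626% of 14060 genes were called lower, the label log2 fold changes were -1.87 (SE 0.29) for *Kif12*, -1.73 (SE 0.17) for *Fam20c*, -1.65 (SE 0.23) for *Sfrp5*, -1.47 (SE 0.12) for *Sdsl* and -1.38 (SE 0.22) for *Klhl23*. That fit shares the 4 day 6 libraries with the day 6 comparison.

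At day 4 all 5 genes were lower by at least 2-fold with 4-OHT, as were 1.4% of the 12836 genes that averaged 1 CPM or more there. The day 4 log2 differences spanned only -1.35 (*Kif12*) to -1.52 (*Sdsl*), while the day 6 ones spanned -1.36 (*Klhl23*) to -2.13 (*Kif12*). The orders differ in these values: *Kif12* had the largest fall at day 6 and the smallest at day 4, and *Sdsl* had the largest at day 4 and, of the 5, only *Klhl23* had a smaller one at day 6. That order is not firm: without EtOH replicate 1 of day 6 *Kif12* was at -1.57 and *Fam20c* at -1.95, and the day 4 intervals of *Kif12* and *Sdsl* overlap. The 2 days rest on separate libraries, but the choice of genes used both. By an edgeR interaction term, a difference of the label effect between the days was called for 0 of 14060 genes. Of these, 235 had an unadjusted p under 0.05, and the smallest adjusted p was 0.275. The day 4 side of that term rests on 1 library per label. For the 5 genes no result of it is given, because they were chosen by their label differences at both days.

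**Figure D2:**
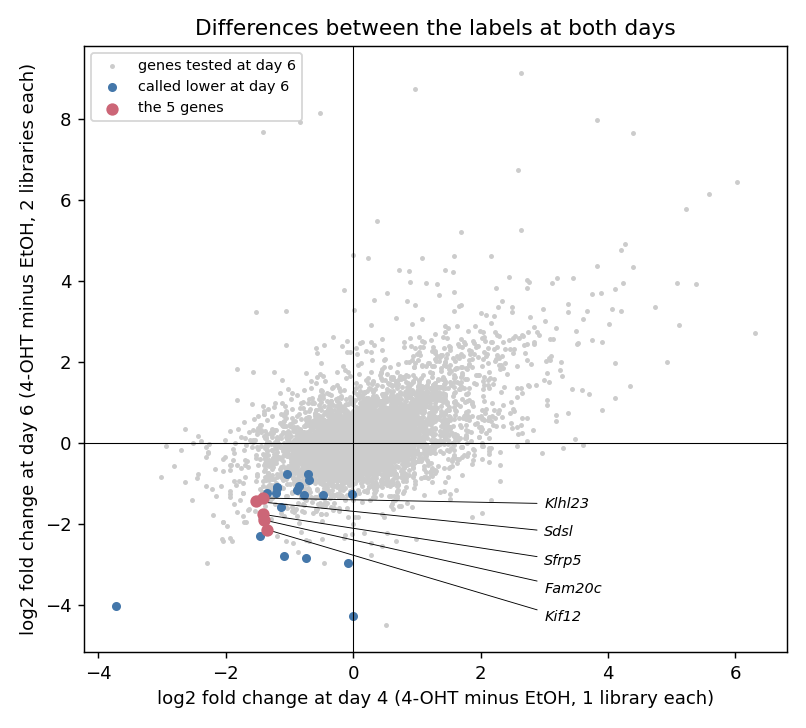
Log2 fold change between the labels (4-OHT minus EtOH) at day 4 (horizontal, 1 library per label, no test) and day 6 (vertical, 2 libraries per label) for the genes tested at day 6. Each grey point is a gene, blue points are genes called lower at day 6 and red points the 5 genes, which lie close together near -1.4 at day 4 and between -1.36 and -2.13 at day 6.

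The genes next to the limits of the choice show where it fell. *Klhl23*, the last gene taken, had a day 6 log2 fold change of -1.36, and the next 3 genes past the same limits were *Olfm4*, a stem cell marker, at -1.27, *Cbs*, cystathionine beta-synthase, at -1.26, and *Zan* at -1.24. At day 4 these 3 differed by -0.78, -0.01 and -1.20, so *Cbs*, at 11.1 (4-OHT) and 11.2 CPM (EtOH) at day 4, met the sign rule with nearly equal levels. *Nrp1*, a co-receptor for semaphorins and VEGF, had a larger day 6 fall than any of the 5, at -2.29, and a day 4 difference of -1.46, between those of *Klhl23* and *Sdsl*. Its mean was 5.62 CPM over the 6 libraries and 4.95 CPM over those of day 6, on either side of the minimum of 5. It is named here after its values were seen.

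Levels of different genes are compared here per length, as CPM per kilobase of exon, counting every base in any annotated exon of the gene. That length is 8222 bases for *Fam20c*, whose canonical transcript has 3678, and 1900 bases for *Sfrp5* by either measure. The distance between these genes below therefore depends on the length used. In the day 6 EtOH libraries *Sdsl* was the highest at 31.5 ± 4.03, followed by *Kif12* at 12.3 ± 5.61, *Klhl23* at 9.00 ± 3.54, *Sfrp5* at 6.80 ± 1.89 and *Fam20c* at 3.04 ± 0.171 CPM per kilobase (SD, n = 2 each). *Kif12* and *Klhl23*, and *Klhl23* and *Sfrp5*, are neighbours in that order whose means differ by less than their replicate spread. In the day 6 libraries labelled 4-OHT the order was *Sdsl* at 11.6 ± 0.595, *Klhl23* at 3.53 ± 0.978, *Kif12* at 2.80 ± 0.889, *Sfrp5* at 2.02 ± 0.219 and *Fam20c* at 0.818 ± 0.0128 CPM per kilobase. The only change of order between the labels was therefore between *Kif12* and *Klhl23*, within their spread, and *Kif12* and *Sfrp5* were also within their spread there. *Klhl23* also stood above *Kif12* at day 4, at 12.3 against 9.65 with EtOH and 4.59 against 3.76 CPM per kilobase with 4-OHT.

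The replicates also show how the 5 genes vary apart from the label. At day 6, EtOH replicate 1 was the higher of the pair for *Kif12*, *Sfrp5* and *Sdsl*, and EtOH replicate 2 for *Klhl23* and, by 1.08-fold, *Fam20c*. *Kif12* at 55.3 against 28.3 CPM and *Klhl23* at 50.4 against 89.1 CPM thus differed in opposite directions between the same pair of libraries. The libraries labelled 4-OHT showed the same opposition, with *Kif12* at 11.7 and 7.39 CPM and *Klhl23* at 22.0 and 32.7 CPM. Over the 6 libraries the correlation of log2 CPM was lowest for that pair, at 0.695, and highest for *Fam20c* and *Sdsl*, at 0.976. These correlations are mostly the shared difference between labels, by which the genes were chosen, and are given as a description.

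Day is the one contrast that the choice did not use. With the label in the same fit, 0.356% of 14060 genes were called between day 6 and day 4 by the edgeR quasi-likelihood test, and 0 of the 5 genes were, also with 0 of 5 at an unadjusted p under 0.05 and 0 of 5 with DESeq2. The largest estimate was that of *Klhl23*, at -0.42 on the log2 scale (95% interval -0.93 to 0.09, edgeR adjusted p = 0.504), lower at day 6 in 4 of 4 libraries than the day 4 library of the same label. *Sfrp5* was at 0.26 (-0.30 to 0.82), *Fam20c* at -0.11 (-0.51 to 0.28), *Sdsl* at -0.06 (-0.35 to 0.22) and *Kif12* at -0.03 (-0.71 to 0.65), with adjusted p of 0.711, 0.828, 0.873 and 0.981. The interval was narrowest for *Sdsl* and widest for *Kif12*. Within the labels, log2 of day 6 over day 4 was 0.35 with EtOH and -0.43 with 4-OHT for *Kif12*, 0.12 and -0.37 for *Fam20c*, 0.41 and 0.09 for *Sfrp5*, -0.10 and -0.02 for *Sdsl*, and -0.45 and -0.38 for *Klhl23*. *Klhl23* was thus the gene at a similar distance below its day 4 level under both labels. *Kif12* and *Fam20c* were the genes whose labels differed in sign by the day 6 means. For *Kif12* the EtOH sign rests on replicate 1 of day 6 (55.3 CPM). Replicate 2 (28.3 CPM) lay below the day 4 EtOH library (32.9 CPM). No test of such a difference between the labels is given for the 5 genes. Each day has its own libraries, so day cannot be told apart from whatever else differed between those sets. The day 4 libraries had counts for 24195 (4-OHT) and 26521 genes (EtOH), and those of day 6 for 19522 to 20622. Entries in no feature were 6.70% (4-OHT) and 6.19% (EtOH) at day 4 and 2.63% to 3.76% at day 6. The part of these differences in the day estimates was not tested.

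**Figure D3:**
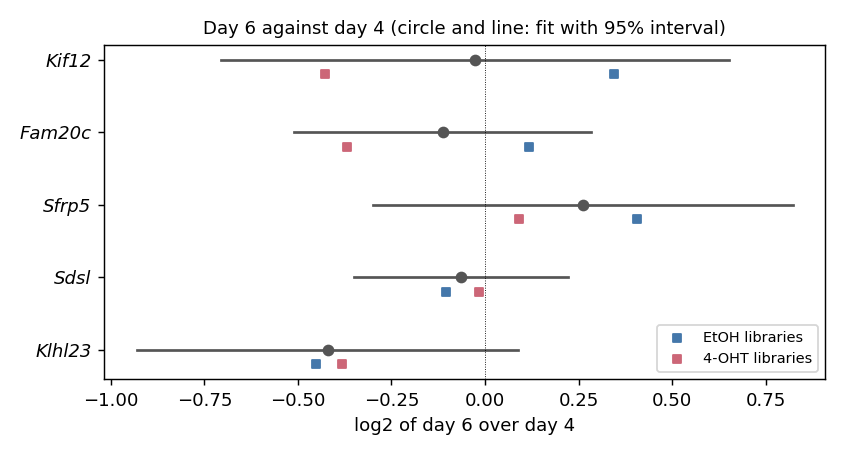
Log2 fold change of day 6 over day 4 for each of the 5 genes, from the fit over 6 libraries with the label as a term. Circles are estimates and lines 95% intervals, and squares give the day 6 mean over the day 4 library within each label. All 5 intervals include 0, and for *Kif12*, *Fam20c* and *Sfrp5* the squares of the labels lie furthest apart.

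The families and pathways of the 5 genes were described, with the 5 themselves left out because they were chosen on this contrast, by the number of other tested genes past the edgeR threshold at day 6, where 2.15% of all tested genes were called and the median log2 fold change was -0.01. Of 38 other kinesins, 31 were tested, 0 were called higher and 1 lower, with 3 at an unadjusted p under 0.05 and a median of 0.05. The one called was *Kif26b*, a kinesin named in the study's title, which was at 72 and 75 counts with EtOH against 9 and 1 with 4-OHT at day 6 and 78 against 3 at day 4 (day 6 log2 fold change -4.03, SE 0.67, edgeR adjusted p = 0.0139). Over both days 12 of 31 had an unadjusted p under 0.05, and again 1 was called, as were 560 of 14060 tested genes. Counts at an unadjusted p, here and in the lists below, stand without the share of all tested genes at that threshold. Nothing is read from them. Of the 31, 10 were lower in all 3 libraries labelled 4-OHT, where 14.1% of all tested genes were. Apart from *Kif26b* these had small day 6 values, from -0.15 (*Kif20a*) to -0.32 (*Kif24*). They include *Kif11*, *Kif15* and *Kif2c*, motors of the mitotic spindle named after their values were seen. Some day 4 differences, with 1 library per label, were larger: -0.61 for *Kif20a* and -0.55 for both *Kif11* and *Kif15*.

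Beside *Fam20c*, 7 secretory pathway kinases were tested, with a median of 0.23. Of these 1 had an unadjusted p under 0.05 and 0 were called by edgeR or DESeq2. The closest relatives of *Fam20c* are *Fam20b*, a xylose kinase of proteoglycan synthesis, at 145 to 203 CPM and a day 6 log2 fold change of -0.18 (edgeR adjusted p = 0.870), and *Fam20a*, its pseudokinase partner, at 2.43 to 7.49 CPM and 0.69 (adjusted p = 0.765).

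Beside *Sfrp5*, 7 Wnt antagonists and feedback genes were tested, among them *Axin2*, *Rnf43* and *Znrf3*, with a median of -0.10. Of these 0 were called by edgeR or DESeq2 and 0 had an unadjusted p under 0.05. The other secreted Frizzled-related genes did not pass the filter: *Sfrp2* had 0 counts in every library, and *Sfrp1*, *Sfrp4* and *Frzb* had at most 6 in any. *Sfrp5* thus held nearly all the reads of its family in these cells. Of 34 Wnt ligands and receptors, 17 were tested and 0 were called at day 6 by edgeR or DESeq2, with 1 at an unadjusted p under 0.05. *Fzd2*, a Wnt receptor named after its values were seen, was at -0.80 at day 6 (edgeR adjusted p = 0.147) and fell by 0.81 over both days (adjusted p = 0.0208).

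Beside *Sdsl*, 13 genes of serine, glycine and threonine metabolism were tested, of which 0 were called higher and 1 lower, with a median of 0.0013. The one called is *Cbs*, which condenses serine with homocysteine: at day 6 it had 16.2 and 13.4 CPM with EtOH and 5.72 and 6.64 CPM with 4-OHT (log2 fold change -1.26, SE 0.26, edgeR adjusted p = 0.0411). Over both days *Cbs* was no longer called (-0.85, adjusted p = 0.142), whereas DESeq2 called it there too. *Sds*, the serine dehydratase gene that lies 3524 bases from *Sdsl* on the opposite strand, had 0 to 5 counts and was not tested.

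Beside *Klhl23*, 22 kelch-like genes were tested, of which 1 was called higher and 0 lower, with 2 at an unadjusted p under 0.05 and a median of -0.0040. *Klhl13*, an adaptor of Cul3 ligases, rose, from 9 and 10 counts to 112 and 70 at day 6 (log2 fold change 3.07, SE 0.47, edgeR adjusted p = 0.00915), with 29 (EtOH) and 48 (4-OHT) counts at day 4. The 4 tested genes of the Cul3 ligase core held 0 calls by edgeR or DESeq2 and 0 at an unadjusted p under 0.05.

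**Figure D4:**
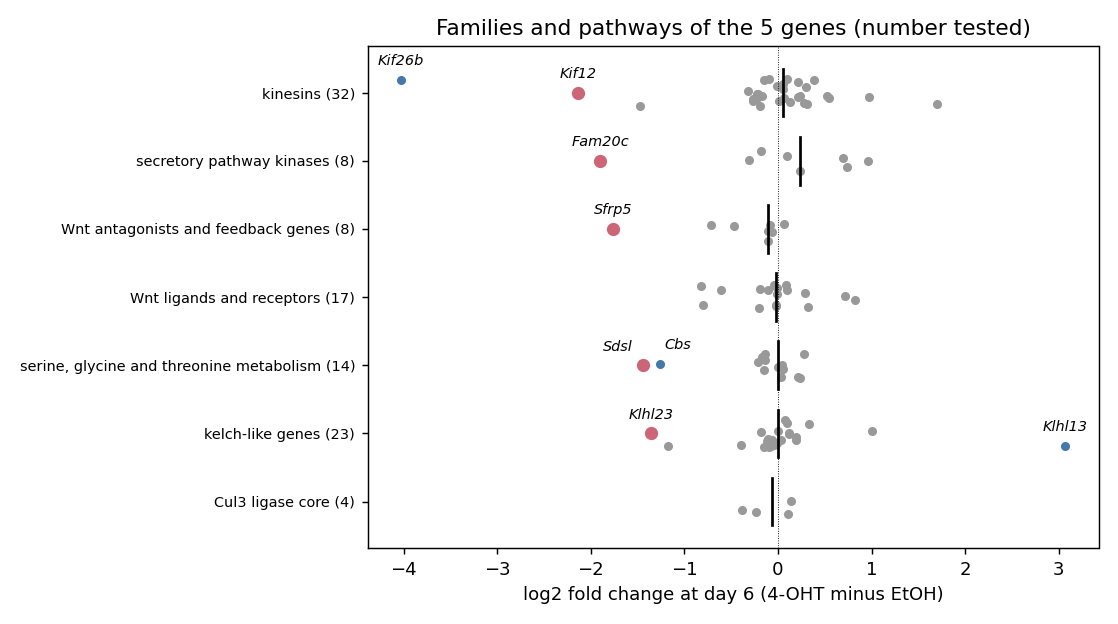
Day 6 log2 fold change (4-OHT minus EtOH) of every tested gene in the families and pathways of the 5 genes, with the number tested, the 5 genes included, in brackets. Red points are the 5 genes, blue points other called genes, grey points genes that were not called, and black bars medians without the 5 genes, which lie between -0.10 and 0.23.

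Reads shared with neighbours could alter a gene's count where genes overlap, and the strand setting of the counting is not given in the sources used here. *Fam20c* shares 6.2% of its exon bases with *Gm71254*, a long non-coding RNA on the opposite strand, and 0.68% with *Gm71224*. Neither is among the counted genes. The nearest protein-coding genes on either side of each of the 5 make 10 neighbours, of which 7 were tested at day 6. None of the 7 was called by edgeR or DESeq2, 0 had an unadjusted p under 0.05, and their log2 fold changes ran from -1.05 to 0.53. *Zfyve27*, the gene 2808 bases from *Sfrp5*, was at -0.30 (edgeR adjusted p = 0.700). *Golga7b*, on the other side of *Sfrp5*, was at -1.05 (edgeR adjusted p = 0.607). Its day 6 levels were 5.98 and 1.85 CPM with EtOH and 1.77 and 2.04 CPM with 4-OHT. *Phospho2* and *Ssb*, beside *Klhl23*, were at 0.02 and -0.11 (edgeR adjusted p = 0.989 and 0.917).

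Of the transcripts, 4 of 5 were rich in G and C, which the choice did not use. GC content of the canonical transcript was 59.3% for *Kif12*, 62.5% for *Fam20c*, 60.3% for *Sfrp5* and 62.0% for *Sdsl*, each above that of at least 93.5% of 12308 tested protein-coding genes (median 50.4%). *Klhl23* was at 43.5%, above 14.5% of genes. Beside this, the 798 tested genes with a GC content of at least 59.3% had a median log2 fold change of -0.04 at day 6 and 0.04 at day 4, against -0.00178 and 0.00344 over all.

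YTHDF2, the product of the floxed gene, is known to bind RNA carrying N6-methyladenosine and to promote its decay, and GGACT in the DNA sequence is a common form of the methylated motif. No methylation was measured in these files. *Sfrp5* has 3 GGACT in its transcript of 1900 bases, all in the 3′ untranslated region, *Klhl23* has 6 in 5267 bases with 3 of them there, *Kif12* 2, *Fam20c* 1 and *Sdsl* 0. The median transcript has 4, at 1.05 per kilobase, and 65.5% of genes have at least 1 in the 3′ untranslated region. For the 2 genes with such a match there, the first after the stop codon is shown with its surroundings, GGACT in capitals, from chr19:42186877-42186905 (minus strand, 231 bases after the stop codon) and chr2:69664325-69664353 (plus strand, 8 bases after it) of GRCm39.

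Sfrp5 site: ctcccagtagaaGGACTttctcttctggg

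Klhl23 site: tctgagtccacaGGACTaaccaggtcctc

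*Sfrp5* is above the median in the motif, at 1.58 per kilobase, with 78.4% of genes at or below that value. *Klhl23* at 1.14 is close to the median, and *Kif12* (0.88), *Fam20c* (0.27) and *Sdsl* (0) are below the median. A match is a description of letters and not a site of methylation or binding.

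Genes whose levels followed those of the 5 most closely were found by Pearson correlation of log2 CPM over the 6 libraries among 10119 protein-coding genes. For *Kif12* these were *Smpd4* (0.995), *Zfp512* (0.994) and *Hdac1* (0.992). For *Fam20c* they were *Ube2t* (0.996), *Lss* (0.996) and *Senp1* (0.991), and for *Sfrp5* *Syvn1* (0.997), *Engase* (0.991) and *Pdss1* (0.991). *Sdsl* was followed by *Lipg* (0.993), *Anp32e* (0.991) and *Mettl23* (0.989), and *Klhl23* by *Cachd1* (0.996), *Pif1* (0.992) and *Taok2* (0.991). All 15 were lower in the 3 libraries labelled 4-OHT, which follows from picking them by likeness to genes chosen for that pattern. Their day 6 log2 fold changes ran from -0.15 to -1.23 and only *Lipg* was called. The correlation takes no account of the size of a change, so the likeness is one of pattern only. The 5 lists share no gene.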

How the data were processed

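RNA from Lgr5-GFP+ cells of mouse organoids was sequenced in 6 libraries. The authors deposited whole-number read counts per gene and library, not normalized, for 56884 Ensembl genes after 4 summary lines, which held 19.3% to 26.7% of entries and were left out. STAR and mm39 are named in the submitters' processing notes, and versions, annotation release and strand setting are not given in the sources used here. Ambiguous and multimapping reads are in no gene.

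Libraries were grouped by label and day, and compared by a chi-square test per replicate pair, which did not find a library deposited more than once (33.3 and 22.9 per degree of freedom). Symbols, positions and sequences came from GENCODE M39 on GRCm39. Counts were tested with edgeR 4.0.16 (glmQLFit and glmQLFTest, R 4.3.3), TMM scaling, filterByExpr (minimum count 10) and Benjamini-Hochberg adjustment over all genes tested, with calls at an adjusted p under 0.05: label at day 6 (4 libraries), and label and day over 6 libraries. CPM are TMM-scaled, and day 4 differences used a prior count of 2 and no test. Standard errors come from the F statistic. The members and lists were chosen with earlier results of these data known. Named were the 5 genes, *Ythdf2*, *Kif26b*, *Lgr5*, called genes of each list (at most 5), 3 genes of likest pattern per member, the 3 genes next after the members, relatives and neighbours. On simulated counts with 200 changed genes, 75% were recovered at day 6 (13734 genes; 64% of 2-fold and 86% of 4-fold changes), with 4.5% of calls false. Over both days 82% were recovered (13789 genes; 71% of 2-fold and 93% of 4-fold changes). The alternatives tried were DESeq2 1.42.0, scaling by median-of-ratios factors, no filter, a replicate block, total-count scaling, a prior count of 0.5, leaving out each library and, chosen after seeing the data, robust quasi-likelihood. The list of described kinase substrates is not reported here.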

Additional observations from a re-analysis of the deposited data

How the results depend on the processing

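The number of genes called at day 6 was 302, and became 725 without the filter, 502 with DESeq2 and 816 with replicate number as a block. Same-numbered day 6 libraries deviated together, but the labels do not say that the number pairs them. The correlation over genes was 0.266 between the replicate 1 minus 2 difference with EtOH and that with 4-OHT. Called over both days were 560 genes, against 1150 without the filter, 857 with DESeq2 and 305 to 637 when 1 library was left out. For day there were 50, against 832, 318 and 8 to 459. The counts over both days moved without the day 4 library labelled 4-OHT (305), day 4 EtOH (310) or either day 6 library labelled 4-OHT (342 each). Those for day moved without the same day 4 libraries (8 and 15), day 6 4-OHT replicate 1 (31) or day 6 EtOH replicate 2 (459). Of 104 tested family and pathway genes other than the 5, 3 were called, against 5 of 104 with the replicate block and 5 of 147 without the filter. Median-of-ratios scaling and robust quasi-likelihood kept each count within 1.5 times.

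Leaving out 1 library gave day 6 log2 fold changes of -2.54 to -1.57 for *Kif12*, -1.95 to -1.84 for *Fam20c*, -2.02 to -1.44 for *Sfrp5*, -1.57 to -1.30 for *Sdsl* and -1.71 to -0.89 for *Klhl23*. With the replicate block, *Kif12* was at -2.10 and *Sfrp5* at -1.74. The day estimates crossed 0 for *Kif12* (-0.42 to 0.34; 0.12 without EtOH and 0.15 without 4-OHT replicate 2 of day 6), *Fam20c* (-0.37 to 0.11) and *Sdsl* (-0.12 to 0.0029), and *Klhl23* ranged from -0.62 to -0.25. Adjusted p for day under these settings was never below 0.118, the lowest for *Klhl23*. Genes lower at least 2-fold at day 4 numbered 168 to 196 around 180. The day 4 values rest on 1 library per label, which limits every statement on that day, and 2 libraries per label limit those on day 6.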
